A study of Mus musculus with 12 samples.

Results

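Meltf, Folr1, Aoc1 and Ifi202b are 4 of the 19938 genes measured in a microarray study of the mouse duodenum that set Onecut2 knockout mice beside wild-type mice at postnatal days 15 and 30. They were chosen from these same arrays because their signal was raised in knockout duodenum at day 15 but not at day 30, so the genotype and age differences given for them are descriptions and carry no p-value. All 4 genes were found, each read by 1 array feature that names no other gene.

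The 4 groups were Onecut2 knockout at day 30, wild type at day 30, Onecut2 knockout at day 15 and wild type at day 15. Each group had 3 arrays, and each array carried total RNA pooled from 5 to 8 untreated mice of strain 129, both sexes mixed. The labels say that the Onecut2 gene was ablated and name no Cre driver or cell type. Whole duodenal segments were extracted, so fewer cells of a type and less RNA per cell cannot be told apart in any value below. Values are log2 signal after robust multi-array averaging (RMA), in which 1 unit is a doubling, and a level of one gene is not set against that of another.

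Onecut2 is a DNA-binding regulator that carries a cut domain and a homeodomain. Between birth and weaning the mouse small intestine takes up whole milk proteins through the apical surface of its enterocytes, and around weaning it changes to the adult digestive programme. Meltf encodes melanotransferrin, a membrane-anchored relative of the iron carrier transferrin. Folr1 encodes folate receptor alpha, which is held in the membrane by a glycosylphosphatidylinositol (GPI) anchor and brings folate into cells by endocytosis. Aoc1 encodes diamine oxidase, the copper amine oxidase of the gut that breaks down histamine and the polyamine putrescine. Ifi202b encodes a DNA-binding protein of the interferon-inducible Ifi200 (HIN-200) family, which in mice is a cluster of closely related genes on chromosome 1.

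The arrays were closely alike in overall signal, with medians over all features of 7.20 to 7.25 and a Pearson correlation of 0.972 to 0.995 between any pair of arrays. Onecut2 itself read 8.24, 8.25 and 8.18 in the knockout pools at day 30, against 9.63, 9.50 and 9.62 in the wild-type pools. At day 15 it read 8.09, 8.13 and 8.20 in knockout, against 9.55, 9.69 and 9.68 in wild type. The knockout arrays were the lower ones at both ages, as the labels require. The 12 markers of enterocytes and duodenum were all measured, and their mean per array lay at 11.90 to 11.95 in knockout and 11.74 to 11.86 in wild type at day 30, and at 12.10 to 12.16 in knockout and 12.05 to 12.10 in wild type at day 15. Of them 2 were higher in knockout at day 30 and 0 were called at day 15 (limma; 5 at an unadjusted p under 0.05).

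Meltf, on chromosome 16, had the largest knockout-over-wild-type difference of all 19938 genes at day 15. At day 30 it read 7.00, 6.97 and 7.05 in knockout pools, against 7.03, 7.17 and 7.05 in wild-type pools. At day 15 it read 10.26, 10.69 and 10.11 in knockout pools, against 6.94, 6.75 and 6.94 in wild-type pools. The 3 knockout arrays of day 15 stood alone, and the other 9 arrays lay between 6.75 and 7.17. In group means, Meltf was 7.01 ± 0.04 in knockout and 7.08 ± 0.08 in wild type at day 30, and 10.36 ± 0.30 in knockout and 6.88 ± 0.11 in wild type at day 15 (SD, n = 3 each). Knockout minus wild type was -0.08 on the log2 scale at day 30 (SE 0.12) and 3.48 at day 15 (SE 0.12), or 11.2-fold. By brightness, Meltf ranked at percentile 92.0 of all genes in day 15 knockout duodenum, against percentile 37.2 in day 15 wild-type duodenum.

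**Figure D1:**
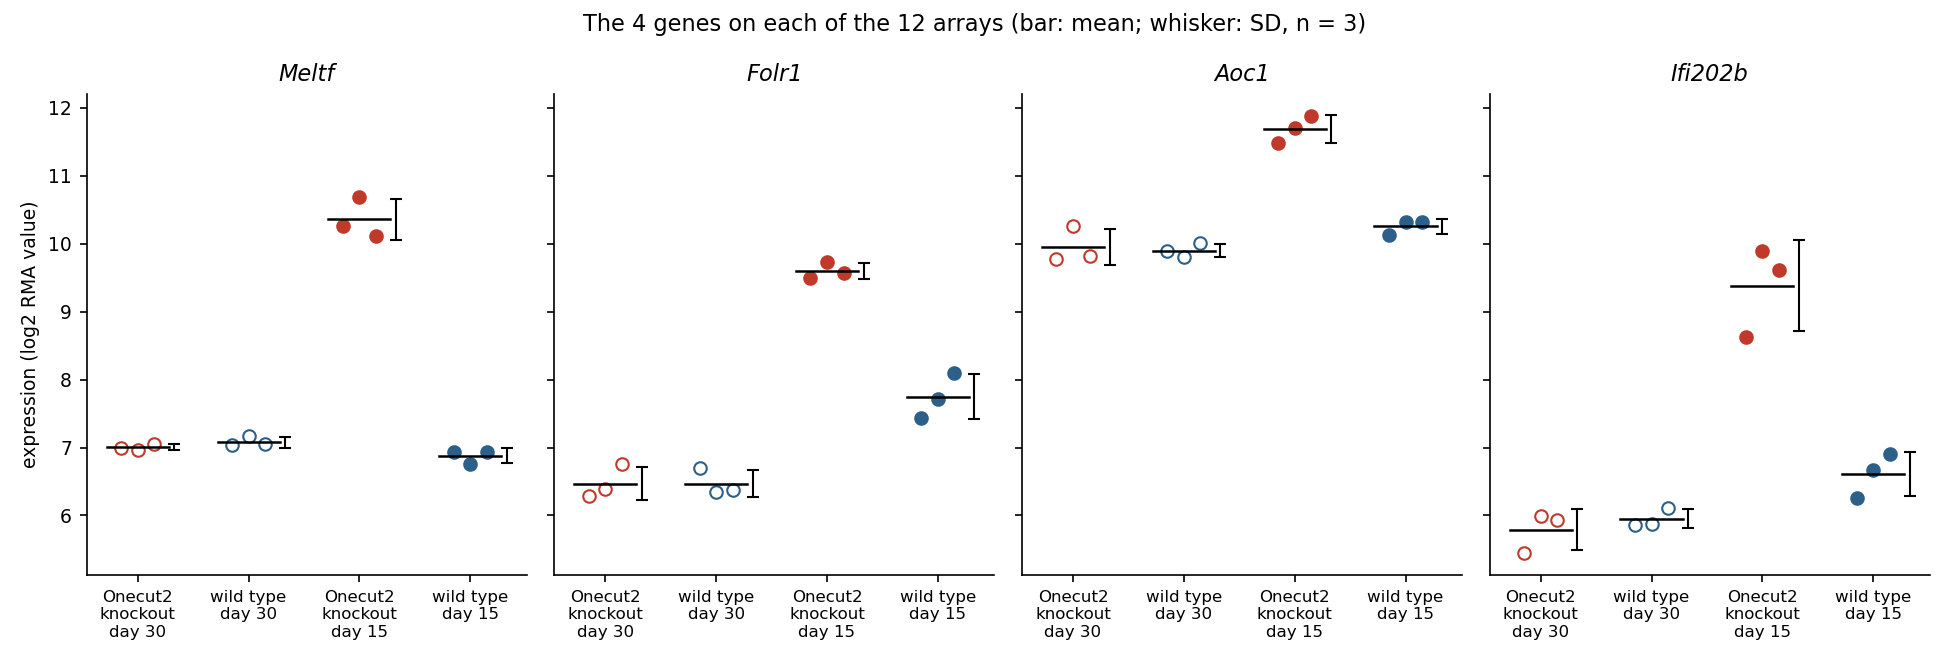
Log2 RMA signal (vertical axis) of Meltf, Folr1, Aoc1 and Ifi202b in each array, by group; points are arrays (pools of mice), red for knockout and blue for wild type, open at day 30 and filled at day 15, lines are means and whiskers SD (n = 3). The day 15 knockout arrays are the highest group for every gene, for Meltf at 10.11 to 10.69 against 6.75 to 6.94 in day 15 wild type, and the genotypes overlap at day 30.

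Folr1, on chromosome 7, was also above its wild type in every day 15 knockout pool, and unlike Meltf it was above its day 30 level in the wild type at day 15. At day 30 it read 6.28, 6.39 and 6.75 in knockout pools, against 6.70, 6.34 and 6.37 in wild-type pools. At day 15 it read 9.50, 9.73 and 9.57 in knockout pools, against 7.44, 7.72 and 8.10 in wild-type pools. At day 15 the lowest knockout pool, at 9.50, was above the highest wild-type pool, at 8.10, and the day 30 pools of the genotypes were interleaved. The means were 6.47 ± 0.25 in knockout and 6.47 ± 0.20 in wild type at day 30, and 9.60 ± 0.12 in knockout and 7.75 ± 0.33 in wild type at day 15 (SD, n = 3 each). The difference was 0.00 at day 30 (SE 0.16) and 1.84 at day 15 (SE 0.16), or 3.59-fold.

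Aoc1, on chromosome 6, was bright in every group, between percentiles 88.0 and 98.1 of all genes, and had the smallest day 15 difference of the 4. At day 30 it read 9.77, 10.26 and 9.82 in knockout pools, against 9.90, 9.80 and 10.01 in wild-type pools. At day 15 it read 11.49, 11.71 and 11.88 in knockout pools, against 10.13, 10.32 and 10.32 in wild-type pools. All day 15 knockout arrays lay above all others, while 1 knockout pool of day 30 lay among the wild-type pools of day 15. Group means were 9.95 ± 0.27 in knockout and 9.90 ± 0.10 in wild type at day 30, and 11.69 ± 0.20 in knockout and 10.26 ± 0.11 in wild type at day 15 (SD, n = 3 each). The difference was 0.05 at day 30 (SE 0.13) and 1.43 at day 15 (SE 0.13), or 2.70-fold.

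Ifi202b, on chromosome 1, was dim outside day 15 knockout duodenum and had the widest spread of the 4 within that group. At day 30 it read 5.44, 5.99 and 5.94 in knockout pools, against 5.86, 5.87 and 6.11 in wild-type pools. At day 15 it read 8.62, 9.90 and 9.62 in knockout pools, against 6.25, 6.67 and 6.90 in wild-type pools. Knockout replicate 1 was lowest of the 3 knockout pools of day 15, and it was still above every wild-type pool. The means were 5.79 ± 0.30 in knockout and 5.95 ± 0.14 in wild type at day 30, and 9.38 ± 0.67 in knockout and 6.61 ± 0.33 in wild type at day 15 (SD, n = 3 each). The difference was -0.16 at day 30 (SE 0.27) and 2.77 at day 15 (SE 0.27), or 6.82-fold. Because Ifi200 genes are alike in sequence, RNA of a relative may add to this signal, and that share was not tested.

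The 250 bases before the RefSeq start of Ifi202b and of 2 neighbours are shown because the genes of this cluster are compared array by array further on. They are from the C57BL/6J reference of GRCm38.p6, not strain 129, on the minus strand as read 5′ to 3′, and capitals mark a found motif. The windows are chr1:173982845-173983094 for Ifi202b, chr1:174031756-174032005 for Ifi205 and chr1:173741810-173742059 for Ifi207.
Ifi202b: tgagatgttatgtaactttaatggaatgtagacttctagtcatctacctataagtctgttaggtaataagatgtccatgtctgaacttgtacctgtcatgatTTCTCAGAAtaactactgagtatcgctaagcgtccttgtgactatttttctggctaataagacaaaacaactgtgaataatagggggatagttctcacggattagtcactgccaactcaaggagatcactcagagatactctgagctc
Ifi205: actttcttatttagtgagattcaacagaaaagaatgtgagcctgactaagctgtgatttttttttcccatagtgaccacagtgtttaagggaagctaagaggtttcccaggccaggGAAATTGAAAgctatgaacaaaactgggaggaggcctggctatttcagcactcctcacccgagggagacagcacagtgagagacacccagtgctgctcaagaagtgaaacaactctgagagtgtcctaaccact
Ifi207: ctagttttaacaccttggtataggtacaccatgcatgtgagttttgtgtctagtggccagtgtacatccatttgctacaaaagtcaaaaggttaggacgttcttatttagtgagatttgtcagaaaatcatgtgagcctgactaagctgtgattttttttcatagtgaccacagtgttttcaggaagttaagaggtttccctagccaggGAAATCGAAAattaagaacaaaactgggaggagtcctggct

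The motifs searched on both strands were the interferon response core (GAAA, any 2 bases, GAAA), the STAT core TTCNNNGAA and the Onecut core ATTGAT or ATCGAT. Ifi205 holds GAAATTGAAA at bases 134 to 125 before its start and Ifi207 holds GAAATCGAAA at bases 41 to 32, a core that 2.98% of 32851 promoter windows hold. Ifi202b holds TTCTCAGAA at bases 148 to 140, a STAT core that 7.02% of windows hold, and these letters of the interferon response core are not in its window. The Onecut core, which 7.4% of windows hold, was not found in the windows of Meltf, Aoc1 or Ifi202b, and the window of Folr1 was not analysed here. Among the neighbours of Ifi202b, Ifi203 holds it on the opposite strand, at bases 135 to 130 before the first of its 2 starts, and the interferon response core at bases 35 to 26 before the other. The neighbour Ifi208 also holds the interferon response core, as GAAATCGAAA at bases 58 to 49. Ifi208 was dim, with group means of 4.37 to 4.79, and its day 15 difference of 0.42 was not called (limma adjusted p = 0.202). A match describes letters and is no measured site.

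In all 4 genes the knockout arrays of day 15 lay above the wild-type arrays of day 15 without overlap, which 9.09% of all genes tested did (12.2% lay below without overlap), and this is what the genes were chosen for. By limma, with adjusted p under 0.05 over all genes, 1.04% of genes were higher and 0.943% lower in knockout at day 30, and 1.81% were higher and 2.03% lower at day 15. The difference between the genotype effects, day 30 minus day 15, was -3.56 for Meltf (SE 0.17), -1.84 for Folr1 (SE 0.23), -1.38 for Aoc1 (SE 0.18) and -2.93 for Ifi202b (SE 0.38). That difference was called lower for 0.226% of genes and higher for 0.231%. Leaving out each of the 12 arrays in turn moved the day 15 difference within 3.31 to 3.60 for Meltf, 1.69 to 2.01 for Folr1, 1.34 to 1.54 for Aoc1 and 2.51 to 3.15 for Ifi202b.

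The age differences of the 4 genes were alike in sign in knockout duodenum and unlike each other in wild-type duodenum. In knockout, day 30 minus day 15 was -3.35 for Meltf, -3.13 for Folr1, -1.74 for Aoc1 and -3.59 for Ifi202b, and no pools overlapped. In wild type the differences were 0.21 for Meltf, -1.28 for Folr1, -0.36 for Aoc1 and -0.66 for Ifi202b, each with the SE its gene has above. The wild-type pools of the 2 ages did not overlap for any of them, with Meltf the gene whose day 30 pools were the higher ones. When the mean of smooth muscle markers per array entered the fit, the wild-type value of Meltf was -0.60 and that of Aoc1 was -0.09. That mean was 10.0 to 10.15 in wild type at day 30 against 10.66 to 10.74 at day 15, so the fit parts it poorly from age. Age differences were common over the table: 22.0% of genes were lower at day 30 without overlap in knockout and 23.1% in wild type, while 20.9% were higher without overlap in knockout and 20.7% in wild type. By limma, 13.8% of genes rose and 17.2% fell with age in knockout, and 12.3% rose and 17.0% fell in wild type. These age differences share arrays with the genotype differences above.

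In the order of levels, day 15 knockout was the highest group for every gene, and it differed from the next group beyond the spread of arrays in all 4. For Meltf the next groups were wild type and knockout at day 30, which overlapped, and then wild type at day 15, the lowest day 30 pool being 6.97 against a highest day 15 wild-type pool of 6.94. For Folr1 the next was wild type at day 15, apart from both day 30 groups, which overlapped. For Aoc1 the day 30 knockout pools overlapped both those of day 15 wild type, next in order, and those of day 30 wild type, while the 2 wild-type groups were apart. Ifi202b had wild type at day 15 next, and the highest wild-type pool of day 30 was 6.11 against a lowest of 6.25 at day 15, while the 2 day 30 groups overlapped.

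**Figure D2:**
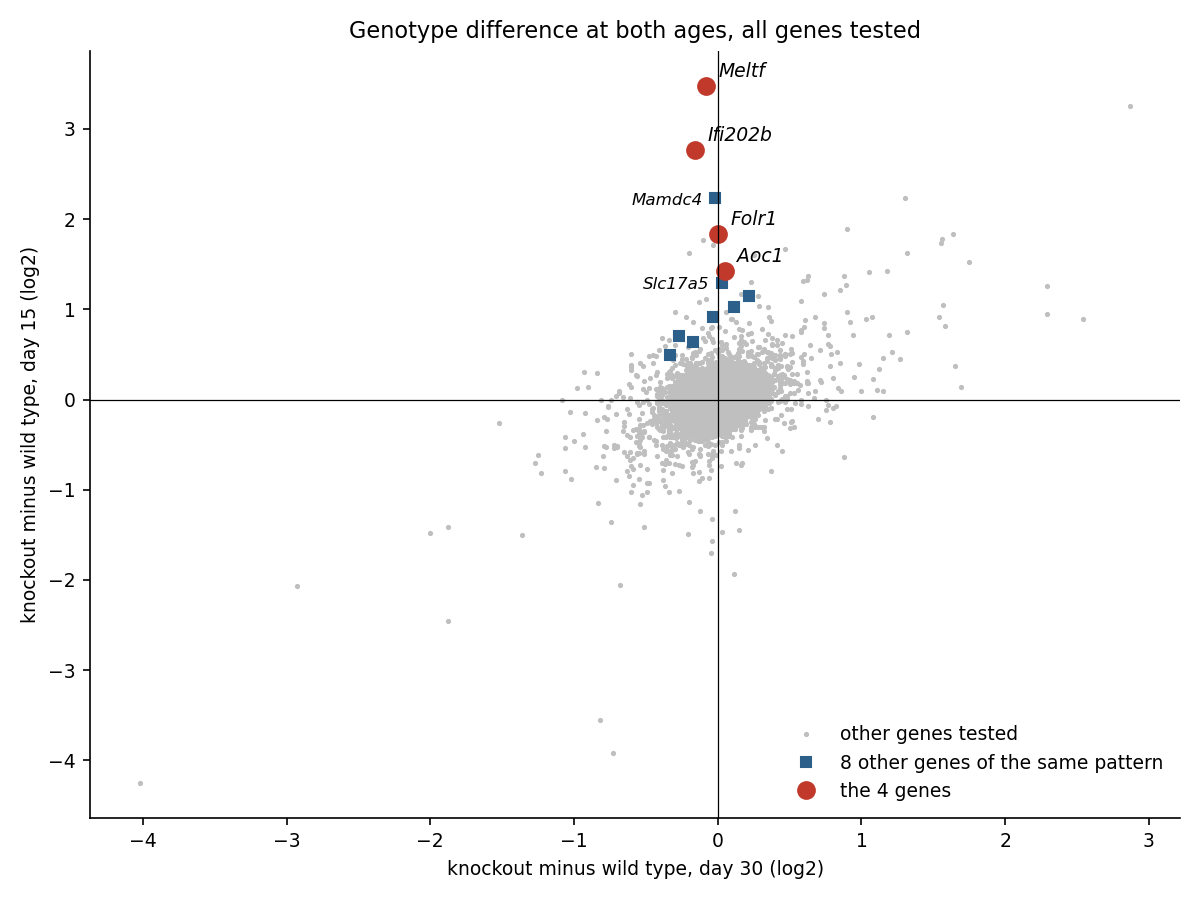
Knockout minus wild type at day 30 (horizontal axis, log2) and at day 15 (vertical axis, log2) for the 19938 genes. Red points are the 4 genes, and blue squares are the 8 other genes of the same pattern with the largest fall of the genotype effect. Grey points are all remaining genes, further genes of the pattern among them. The 4 genes lie along the vertical zero line, from Aoc1 at 1.43 to Meltf at 3.48.

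Over the whole table, 27 genes (0.135%) were higher in knockout at day 15, not called at day 30 and lower in the difference of the genotype effects. The 4 genes are among them, and 9 of the 27 were at least 2-fold higher at day 15. The count was 52 without day 15 knockout replicate 1, 13 without day 15 knockout replicate 2 or replicate 3, 16 without day 15 wild-type replicate 1, 15 without day 15 wild-type replicate 2, 17 without day 30 knockout replicate 1, 16 without day 30 wild-type replicate 2 and 11 without day 30 wild-type replicate 3. Beside the 4, the genes with the largest fall of the genotype effect were Mamdc4, an endosomal protein of suckling enterocytes, at -2.25, and Slc17a5, the lysosomal sialic acid exporter, at -1.26. The genotype difference of Mamdc4 was -0.02 at day 30 and 2.23 at day 15, between Ifi202b and Folr1 in size.

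The genes whose levels ran closest to each of the 4 over the 12 arrays differed among them. Over the 1825 genes whose SD was at least 0.3, Pearson's r to Folr1 was highest for Mamdc4 at 0.995, Snx8 at 0.987 and Slc17a5 at 0.985. Ifi202b ran closest to Aoc1 at 0.983, Lrrc4 at 0.970 and Lgmn, a lysosomal protease, at 0.967. Aoc1 ran closest to Gpr151 at 0.983, Ifi202b at 0.983 and Acvr1c at 0.959, and Meltf to Ifi202b at 0.944, Aoc1 at 0.944 and Gpr151 at 0.930. Among the 4 genes themselves r ran between 0.881 for Meltf with Folr1 and 0.983 for Aoc1 with Ifi202b. These values describe 12 arrays that share 4 groups, and all 4 genes were chosen for a common pattern.

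Mamdc4, the gene closest to Folr1, had its values in the same groups high. At day 30 it read 6.65, 6.71 and 6.74 in knockout pools, against 6.82, 6.69 and 6.65 in wild-type pools. At day 15 it read 10.80, 10.79 and 10.54 in knockout pools, against 8.16, 8.48 and 8.80 in wild-type pools. Within day 15 knockout the order of pools differed, since replicate 1 was the highest for Mamdc4 and the lowest for Folr1, while within day 15 wild type replicate 3 was the highest for both.

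A few genes of folate handling other than Folr1 passed the test, and most did not. Of 28 genes of folate uptake and one-carbon metabolism, 2 rose and 0 fell in knockout at day 30, and 3 rose and 0 fell at day 15. Over all genes, 1.04% rose and 0.943% fell at day 30, and 1.81% rose and 2.03% fell at day 15. The list counts further on stand against these same shares. The median of the folate list was 0.01 at both ages, and over all genes it was 0.00 at day 30 and -0.01 at day 15. The receptor Folr2 differed by -0.17 at day 30 and 0.06 at day 15, the intestinal folate transporter Slc46a1 by 0.09 at day 30 and -0.08 at day 15, and Slc19a1, the reduced folate carrier, by 0.17 at day 30 and 0.13 at day 15, none past the threshold. Ggh, which trims polyglutamate chains from folates, rose by 0.89 at day 15 (limma adjusted p = 0.013), a call that ended without day 15 knockout replicate 2 (adjusted p = 0.0737) or wild-type replicate 1 (adjusted p = 0.0543). Aldh1l1, a folate dehydrogenase, rose by 0.38 at day 30 (limma adjusted p = 0.0053) and by 0.37 at day 15 (adjusted p = 0.0046), and the day 30 call ended when only the arrays of that age were fitted (adjusted p = 0.0536).

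Of 25 genes of polyamine and histamine metabolism, 1 rose and 1 fell in knockout at day 30 (median -0.03), and 1 rose and 2 fell at day 15 (median -0.02). Maoa, which oxidises monoamines, rose by 0.63 at day 30 (limma adjusted p = 0.033) and by 1.37 at day 15 (adjusted p = 0.0001). The day 30 call ended on leaving out each of 7 of the 12 arrays. Agmat, which makes putrescine from agmatine, fell by 0.55 (adjusted p = 0.0014) and Aoc3, another copper amine oxidase, fell by 0.45 at day 15 (adjusted p = 0.00998), a call that ended without day 15 knockout replicate 2. Odc1, the entry enzyme of polyamine synthesis, differed by -0.02 at day 15, Sat1 by 0.09, and Hdc, the histamine-forming enzyme, by 0.12, none past the threshold. Mast cell markers, which carry histamine, had 0 of 11 called at day 15 (limma; 2 at an unadjusted p under 0.05), and their mean per array was 6.51 to 6.61 in knockout against 6.49 to 6.63 in wild type.

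**Figure D3:**
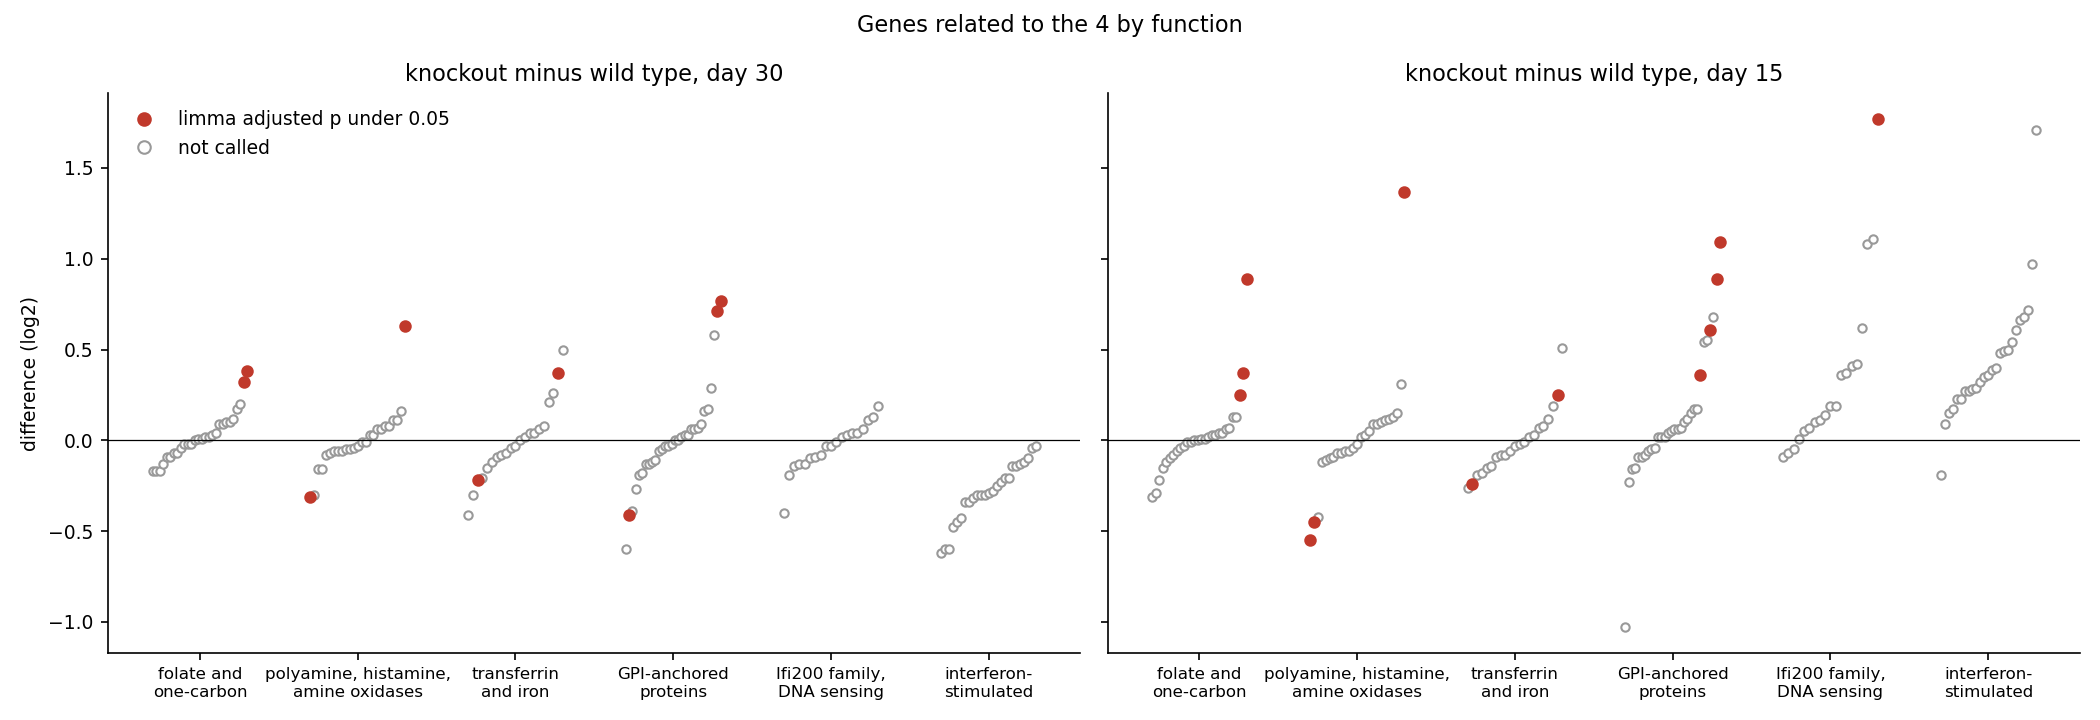
Knockout minus wild type (log2, vertical axis) at day 30 (left) and day 15 (right) for the measured genes of the 6 related lists, ordered by size within each list; red points passed limma's adjusted threshold and open points did not. The highest red points at day 15 are Ifi205 at 1.77 and Maoa at 1.37, and the medians at day 15 are 0.01 for the folate list and 0.36 for the interferon-stimulated list.

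Of 21 genes of iron handling, the transferrin family of Meltf among them, 1 rose and 1 fell at each age, with medians of -0.03 at day 30 and -0.03 at day 15. Heph, the intestinal ferroxidase, rose by 0.25 at day 15 (limma adjusted p = 0.021) and its relative Cp fell by 0.24 (adjusted p = 0.047), calls whose adjusted p ran between 0.00281 and 0.405 for Heph and between 0.0191 and 0.363 for Cp over the alternatives, with that of Heph ended by leaving out any day 15 array but knockout replicate 3 and that of Cp by each of 10 arrays. The other transferrin family members measured were Trf, at -0.08, and Ltf, at 0.51 (adjusted p = 0.14), at day 15. Of 30 GPI-anchored surface proteins, which share their anchor with Folr1, 2 rose and 1 fell at day 30 (median -0.01), against 1.04% and 0.943% of all genes. At day 15, 4 rose and 0 fell (median 0.05), against 1.81% and 2.03% of all genes. Those of day 15 were Vnn1, a pantetheinase, at 1.09 (adjusted p = 0.00084), the complement regulator Cd55 at 0.89 (adjusted p = 0.00051), Sema7a at 0.61 (adjusted p = 0.0081) and Lypd8 at 0.36 (adjusted p = 0.020). The call of Lypd8 ended without day 15 knockout replicate 2 or 3 or wild-type replicate 1 or 2 (adjusted p 0.00281 to 0.363 over the alternatives).

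Ifi202b was set beside its family and beside interferon-stimulated genes, since it is itself interferon-inducible. Of 19 Ifi200 and DNA sensing genes, 0 were called at day 30 (median -0.03; limma, 0 also at an unadjusted p under 0.05), and 1 rose and 0 fell at day 15 (median 0.19). The 1 was Ifi205, at 1.77 (limma adjusted p = 0.036), whose call ended on leaving out each of 8 of the 12 arrays (adjusted p 6.83e-05 to 0.46 over the alternatives). Ifi203 differed by 1.08 (adjusted p = 0.146) and Ifi207 by 1.11 (adjusted p = 0.101), and Aim2, the inflammasome sensor that the Ifi202 proteins block, by 0.19. Of 25 interferon-stimulated genes, 0 were called at either age (limma; 0 at day 30 and 2 at day 15 at an unadjusted p under 0.05), with medians of -0.29 at day 30 and 0.36 at day 15.

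The 3 knockout pools of day 15 differed in these genes. The mean of the interferon-stimulated list was 9.13, 10.56 and 10.51 in the day 15 knockout pools, against 9.20, 9.71 and 9.98 in the day 15 wild-type pools. Ifi205 read 6.94, 9.17 and 8.69 in knockout, against 6.10, 6.66 and 6.73 in wild type, and Ifi207 read 7.11, 8.83 and 8.40 in knockout, against 6.59, 7.09 and 7.33 in wild type. Ifi203 read 8.78, 10.68 and 10.29 in knockout, against 8.50, 8.93 and 9.09 in wild type. Knockout replicate 1 was the lowest knockout pool in each of these. Wild-type replicate 1 was likewise the lowest wild-type pool of day 15 in each, and in Ifi202b. In knockout replicate 1 the interferon list lay below every day 15 wild-type pool, and both Ifi203 and Ifi207 lay among them. There Ifi205, at 6.94, was above the highest wild-type pool, at 6.73, and Ifi202b, at 8.62, was above the highest at 6.90. Without that pool Ifi205 differed by 2.44, and Ifi203 and Ifi207 passed the threshold (limma adjusted p = 0.000512 and 0.00106). These were the lowest values over the alternatives, where adjusted p ran up to 0.703 for Ifi203 and 0.606 for Ifi207. The pool was singled out for being lowest in these genes, so the passes without it are a description and no support.

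When the interferon list mean of each array entered the fit, an alternative added after the data were seen, the day 15 difference of Ifi202b was 2.41, a description of the value the gene was chosen on. The part of interferon signalling in it was not tested. In knockout duodenum 15 of the 25 interferon-stimulated genes fell at day 30 relative to day 15 and 0 rose (median -0.94), where 17.2% of all genes fell. In wild type 3 fell and 0 rose (median -0.32), where 17.0% of all genes fell. The difference of the genotype effects between the ages was called for 0 of the 25 (limma; 2 at an unadjusted p under 0.05), so these counts do not show that the genotypes differed with age.

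**Figure D4:**
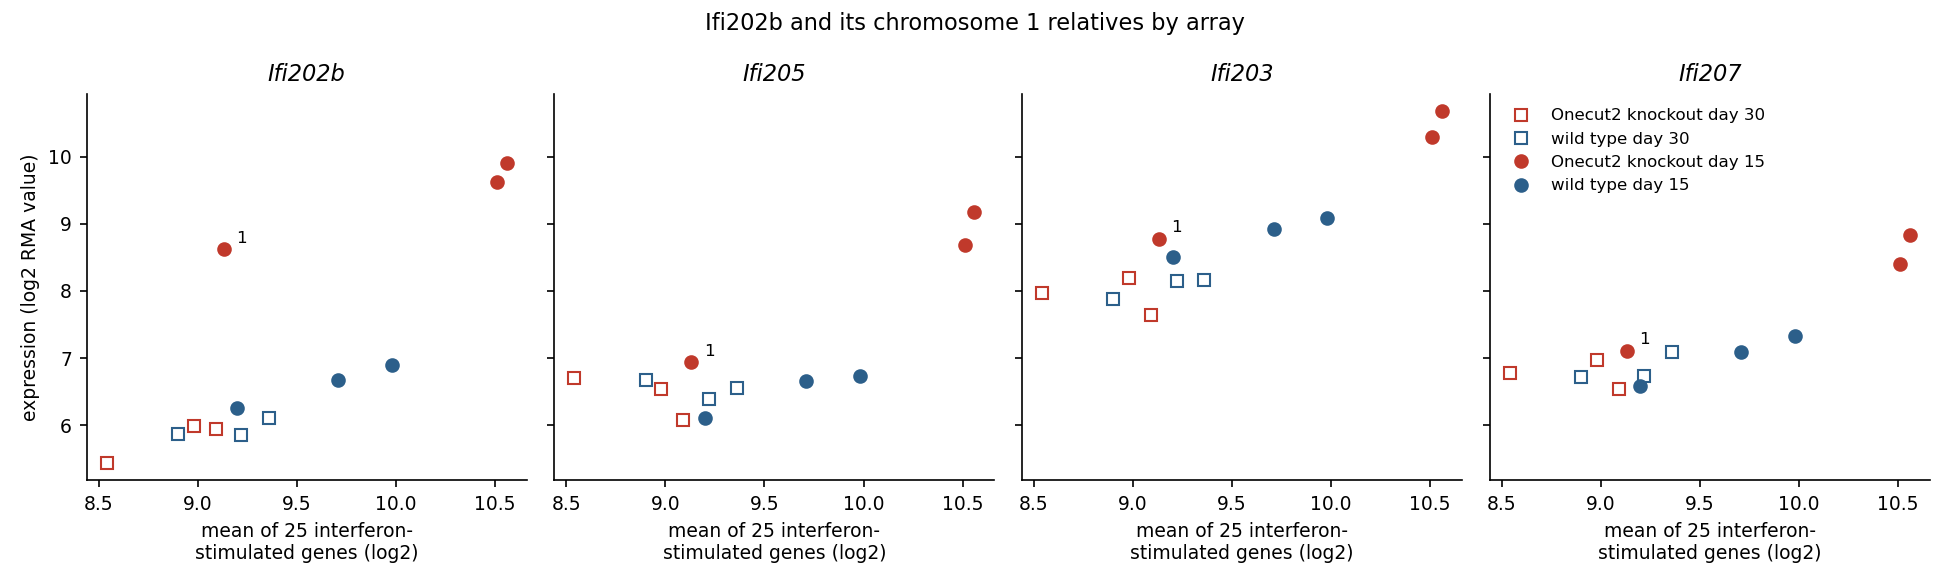
Log2 RMA signal of Ifi202b, Ifi205, Ifi203 and Ifi207 (vertical axis) against the mean of the 25 interferon-stimulated genes (horizontal axis, log2) on each array; red is knockout and blue wild type, squares are day 30 and circles day 15, and 1 marks day 15 knockout replicate 1. That array lies left of the day 15 wild type on the horizontal axis, and for Ifi202b it stands at 8.62 above their 6.25 to 6.90.

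The genes beside the 4 on their chromosomes were tested as well. Of the 24 nearest tested neighbours, 3 on each side, 0 were called at day 30 (limma; 5 at an unadjusted p under 0.05), where 1.04% of all genes rose and 0.943% fell. At day 15, 1 rose and 1 fell (9 at an unadjusted p under 0.05), where 1.81% of all genes rose and 2.03% fell. The share of all genes at an unadjusted p under 0.05 is not given here. The 1 that rose was Ifi205, beside Ifi202b. The 1 that fell was Bdh1, a ketone body dehydrogenase beside Meltf, by 0.61 (log2 -0.61; limma adjusted p = 0.0002). Beside Folr1, the related Folr2 differed by 0.06 at day 15, and beside Aoc1 the amine oxidase relatives Doxl1 and Doxl2 differed by 0.01 and 0.05.

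Markers of other cells moved with genotype in part. Of 7 Paneth cell markers, 5 rose in knockout at day 30 and 7 at day 15, with a mean per array of 11.37 to 11.52 in knockout against 10.78 to 10.81 in wild type at day 30, and 10.87 to 11.07 in knockout against 9.56 to 9.80 in wild type at day 15. The 7 include Guca2b, which is not particular to Paneth cells. Its wild-type mean fell with age, 11.97 at day 15 and 11.61 at day 30, while the other 6 rose. Of 10 smooth muscle markers, 1 fell at day 15 (limma; 9 at an unadjusted p under 0.05, and the means of all 10 were lower in knockout), where their mean was 10.39 to 10.56 in knockout against 10.66 to 10.74 in wild type, and 3 of 10 stomach and Brunner gland markers fell. At day 15 macrophage markers had 1 of 10 higher, T cell markers 1 of 10 and B cell markers 1 of 8, with list medians of -0.09, 0.15 and -0.03. Pancreas and endothelium markers had 0 of 9 and 0 of 8 called (limma, with 5 and 1 at an unadjusted p under 0.05). The pools did not overlap at day 15 in the mean of the pancreas markers, 12.03 to 12.61 in knockout against 12.78 to 12.87 in wild type, or of the T cell markers, 6.80 to 6.99 in knockout against 6.62 to 6.74 in wild type. When the mean of the smooth muscle markers entered the fit, also added after the data were seen, 12 of the 13 day 15 calls among related genes ended, all but Cd55. The pools of the genotypes did not overlap in that mean at day 15. The fit therefore parts it poorly from genotype, and the ended calls are no test of muscle content. The differences themselves were as large or larger in 9 of the 13, for Ggh 1.21 with an adjusted p of 0.154 by limma, and smaller in 4. In the same fit the day 15 differences of the 4 genes were 3.21 for Meltf, 1.65 for Folr1, 1.52 for Aoc1 and 2.59 for Ifi202b. The part of Paneth and other cells in the values of the 4 genes was not tested.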

How the data were processed

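Total RNA of pooled duodenum was measured on 12 Affymetrix arrays, and the deposited values are log2 signal that the authors made by RMA in Affymetrix Expression Console 1.1, per the submitters' processing notes. Of 35557 features, 21789 name 1 gene, 1621 several and 12147 none; symbols came from the platform annotation and 21698 features matched the RefSeq table of GRCm38.p6. The brightest feature stood for each of the 999 genes with several, which gave 19938 genes. Array numbers limit precision, and no depth applies.

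Group means were fitted with limma 3.58.1 in R 4.3.3 over all 12 arrays (8 residual degrees of freedom), with Benjamini-Hochberg adjustment over all genes and calls at 0.05. In a permutation test 3 arrays against 3 cannot go below p = 0.1. Labels call the replicates biological pools, and their numbers were not treated as pairs. Deviations of same-numbered arrays correlated between -0.252 and 0.359, and those of unlike numbers between -0.358 and 0.373. Between the genotypes at day 15, same-numbered arrays gave 0.359, -0.009 and 0.261, and others -0.358 to 0.187. At day 30 same-numbered arrays gave -0.115, 0.122 and -0.244. These values do not settle whether the numbers were tied, and a fit with the replicate block was run as an alternative. On simulated data with 19938 genes, calls at day 15 were made for 77.6% of 67 genes changed by 0.5 log2, for 100% of 67 changed by 1 and 100% of 66 changed by 2, with 4 false calls. The simulated noise was normal and independent between genes, and genes were changed only in day 15 knockout. On the real arrays genes vary together, so these shares are not the power or error rate of these data.

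The 4 genes and the gene lists were chosen with earlier results of these data known. Lists were folate and one-carbon genes, polyamine and histamine genes, Ifi200 and DNA sensing genes, interferon-stimulated genes, iron handling, GPI-anchored proteins and markers of enterocytes and duodenum, smooth muscle, pancreas, stomach and Brunner gland, macrophages, mast cells, T cells, B cells, Paneth cells and endothelium. Genes named are the 4, Onecut2, the 12 genes of the common pattern with the largest fall of the genotype effect, the 3 genes closest to each of the 4 by Pearson r, up to 4 called genes of each list with the smallest p per comparison, listed pathway genes and chromosomal neighbours. Alternatives covered the variance trend, robust fits, array weights, filters, centring, feature means, pairs of groups alone, the replicate block, left-out arrays and, added later, 2 covariates. The protein comparison of relatives was not made here.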

Additional observations from a re-analysis of the deposited data

Results flagged for a closer look

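The results singled out here differ in genotype effect between the ages, as day 30 minus day 15 of knockout minus wild type. For the 4 genes this is what chose them: Meltf at -3.56, Folr1 at -1.84, Aoc1 at -1.38 and Ifi202b at -2.93, with no test. For other genes limma's test of the difference passed at the adjusted threshold. Those named next are, beside the 4, the rest of the 12 genes of the same pattern with the largest fall. They were Mamdc4 at -2.25, Slc17a5 at -1.26, the phosphate transporter family member Slc17a4 at -0.97 and the endocytic adaptor Dab2 at -0.94. With them were the Paneth cell genes Lyz1 at -0.92 and Defa39 at -0.92, Car9 at -0.82 and the growth factor Igf2 at -0.81. Gpr151, close to Aoc1 and Meltf, differed by -0.58 and Snx8, close to Folr1, by -0.51, both also of the pattern. Among GPI-anchored proteins Cd55, of the pattern too, differed by -0.80, while the carbonic anhydrase Car4 differed by 0.83, with its rise in knockout at day 30. Bdh1, beside Meltf, differed by 0.57, being lower in knockout at day 15. With each of the 12 arrays left out in turn, the call ended in 11 cases for Slc17a4, 9 for Gpr151, 9 for Cd55, 8 for Snx8, 7 for Dab2, 4 for Car9, 4 for Bdh1 and 2 for Car4. The calls of Slc17a4 and Gpr151 also ended with the replicate block. With the smooth muscle mean in the fit, the calls of Slc17a4, Gpr151, Cd55, Snx8, Dab2, Car9, Bdh1 and Car4 all ended. Those of Igf2 and Defa39 ended there too (limma adjusted p = 0.0657 and 0.136). The smooth muscle mean did not overlap between the ages in either genotype, so that fit parts it poorly from age. The interferon mean ended those of Slc17a4, Gpr151, Cd55, Snx8 and Dab2. Those of Mamdc4, Slc17a5 and Lyz1 held under every alternative (highest limma adjusted p = 0.0461).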

How the results depend on the processing

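The sign of the day 15 difference of all 4 genes stayed under every alternative run. The genes were chosen on that difference in these same arrays, so its stable sign is a description and no support. When the mean of smooth muscle markers entered the fit, Meltf was 3.21 higher in knockout at day 15 and its difference of effects was -3.34, and with the interferon mean that of Ifi202b was -2.34. Leaving out arrays gave 3.31 to 3.60 for Meltf at day 15 and, for the difference of effects, -3.68 to -3.39 for Meltf, -2.01 to -1.69 for Folr1, -1.54 to -1.29 for Aoc1 and -3.31 to -2.67 for Ifi202b. Age differences moved with the smooth muscle covariate: in knockout Meltf was -3.95, Folr1 -3.56 and Aoc1 -1.55, and in wild type Meltf was -0.60, Folr1 -1.87, Aoc1 -0.09 and Ifi202b -1.20. With the interferon covariate knockout values were -2.79 for Folr1, -1.44 for Aoc1 and -2.62 for Ifi202b, and the wild-type value of Ifi202b was -0.29. Genes called at day 30, 395 as reported, were 596 with an intensity trend, 237 from the compared groups alone and 218 to 420 without an array. At day 15, 764 as reported, they were 1218 with array weights, 480 from the arrays of the compared groups alone, 77 with the smooth muscle covariate and 340 to 782 without an array. For the difference of effects, 91 as reported, they were 177 with the trend, 155 with weights, 29 with smooth muscle and 47 to 123 without an array. By age they were 6178 in knockout (271 with smooth muscle, 3318 with the interferon covariate, 4990 to 6258 without an array). In wild type they were 5849 (46 with smooth muscle, 4561 to 6175 without an array). The smooth muscle mean did not overlap between the ages in either genotype, nor between the genotypes at day 15. A fit with it parts it poorly from age and genotype, so the fewer calls are no test of muscle content. The pattern count of 27 was 54 with the trend, 42 with weights, 13 with the interferon and 6 with the smooth muscle covariate, and 11 to 52 without an array. Age differences that changed sign with smooth muscle were Mtr, 0.03 in knockout and 0.10 in wild type, Sting1, -0.15 in wild type, Tfrc, -0.20 in knockout, and Tmem176a, 0.17 in knockout and 0.18 in wild type. These are sizes from the fit that parts the smooth muscle mean poorly from age, and their tests are not given here. The replicate block gave 331 calls at day 30, 611 at day 15, 80 for the difference, 6039 by age in knockout, 5726 in wild type and a pattern count of 22; the causes were not tested.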
